A study of Mus musculus with 16 samples.

Results

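The kindlins and talins are 5 mouse genes, Fermt1, Fermt2 and Fermt3 for kindlin-1, kindlin-2 and kindlin-3, and Tln1 and Tln2 for talin-1 and talin-2. They were found by symbol among the 26653 genes of 3 tables of RNA sequencing values, 1 table per cell type. All 5 are in the tables of the embryonic stem cells (ESCs) and of the kidney fibroblasts (MKFs). The table of the embryonic fibroblasts (MEFs) holds 4 of them, without Fermt1, and every member present in a table entered the tests. The series comprised 16 libraries of total RNA in 8 groups of 2. ESCs carried a knockout (KO) of Actb, the gene of beta-actin, a deletion of the full Actb locus, or were wild type (WT). MEFs carried a KO of Actg1, the gene of gamma-actin, a deletion of the full Actg1 locus, or were WT. MKFs were Kindlin-2 KO, that is KO for Fermt2, or carried the floxed Kindlin-2 gene, in which recombination sites flank a stretch meant for removal. The labels do not say how the KO alleles were made, which part of Fermt2 was removed, whether a line is a single clone, or whether the 2 libraries of a group came from separate cultures. The p-values rest on the spread within each pair of libraries, part or all of which may be technical. The series examined how cells adapt the transcription of a mutant gene's relatives, which for Kindlin-2 are Fermt1 and Fermt3.

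Integrins are cell-surface receptors for the extracellular matrix, and they bind their ligands firmly only after activation from inside the cell. Talins and kindlins are FERM-domain proteins that bind different sites of the integrin beta tail and act together in that activation, and talin also ties the integrin to actin filaments. Kindlin-2 is the widely expressed kindlin, kindlin-1 is known mainly from epithelia, and kindlin-3 mainly from blood cells, where it serves platelet and leukocyte integrins. Talin-1 is the widespread talin, while talin-2 is known for its expression in heart, muscle and brain.

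The kindlins are similar proteins, and a stretch of their coding sequence is shown in which Fermt1 and Fermt2 are most alike. In the coding sequences on GRCm38 (GENCODE M21), Fermt1 and Fermt2 were identical at 64.5% of aligned bases, Fermt3 and Fermt2 at 60.8%, and Fermt3 and Fermt1 at 59.6%. The longest run of identical bases was 26 between Fermt1 and Fermt2 and 20 in each of the other kindlin pairs, and it was 30 between Tln1 and Tln2, which were identical at 71.3% of aligned bases. The window below covers 90 bases of the Fermt2 coding sequence (bases 883 to 972, chromosome 14), of Fermt1 (877 to 966, chromosome 2) and of Fermt3 (814 to 903, chromosome 19), 5′ to 3′, and capitals mark bases that differ from Fermt2. Fermt1 differs there at 16 bases and Fermt3 at 20. The window was chosen as the gap-free 90 bases with the highest identity of Fermt1 to Fermt2. Identity to Fermt2 there was 82.2% for Fermt1 and 77.8% for Fermt3, higher than over the whole coding sequences.
Fermt2 coding window: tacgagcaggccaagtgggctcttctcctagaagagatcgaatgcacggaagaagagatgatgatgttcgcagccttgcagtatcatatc
Fermt1 coding window: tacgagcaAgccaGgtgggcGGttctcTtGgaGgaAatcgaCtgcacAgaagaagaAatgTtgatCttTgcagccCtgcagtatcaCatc
Fermt3 coding window: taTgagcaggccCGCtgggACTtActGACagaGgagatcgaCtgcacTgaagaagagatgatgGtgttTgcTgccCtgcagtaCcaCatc

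The promoters of Fermt2, Fermt3, Tln1 and Fermt1 are shown because Fermt2, Fermt3 and Tln1 rose in both Actb mutants and Fermt1 rose in the Kindlin-2 KO. Each window runs from 250 bases before to 50 bases after the start site on the minus strand and is taken from RefSeq (GRCm38.p6), at chr14:45530016-45530315 for Fermt2, chr19:7019420-7019719 for Fermt3, chr4:43562534-43562833 for Tln1 and chr2:132945987-132946286 for Fermt1. Both strands were searched for the CArG box of serum response factor, GGAATG for TEAD factors, TGANTCA for AP-1 and the GC box GGGCGG. The capitals in the Fermt2 window mark its 1 CArG box, at position -204 from the start site, which overlaps none of its 6 GC boxes.
Fermt2 promoter: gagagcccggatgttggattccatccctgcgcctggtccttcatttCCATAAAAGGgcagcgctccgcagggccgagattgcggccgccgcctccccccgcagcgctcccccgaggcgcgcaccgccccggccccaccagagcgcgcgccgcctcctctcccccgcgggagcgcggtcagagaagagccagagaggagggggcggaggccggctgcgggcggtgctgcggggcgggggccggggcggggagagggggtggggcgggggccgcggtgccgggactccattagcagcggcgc
Fermt3 promoter: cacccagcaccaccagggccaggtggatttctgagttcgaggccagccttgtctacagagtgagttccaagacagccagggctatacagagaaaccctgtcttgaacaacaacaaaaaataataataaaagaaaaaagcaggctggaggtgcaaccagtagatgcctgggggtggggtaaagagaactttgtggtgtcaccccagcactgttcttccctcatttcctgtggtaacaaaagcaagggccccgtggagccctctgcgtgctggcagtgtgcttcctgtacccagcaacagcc
Tln1 promoter: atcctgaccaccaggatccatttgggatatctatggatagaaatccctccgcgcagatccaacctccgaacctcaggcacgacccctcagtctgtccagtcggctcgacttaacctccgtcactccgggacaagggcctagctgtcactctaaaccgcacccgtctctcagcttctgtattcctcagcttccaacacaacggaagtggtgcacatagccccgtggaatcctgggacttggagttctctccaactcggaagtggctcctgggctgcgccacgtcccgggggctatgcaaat
Fermt1 promoter: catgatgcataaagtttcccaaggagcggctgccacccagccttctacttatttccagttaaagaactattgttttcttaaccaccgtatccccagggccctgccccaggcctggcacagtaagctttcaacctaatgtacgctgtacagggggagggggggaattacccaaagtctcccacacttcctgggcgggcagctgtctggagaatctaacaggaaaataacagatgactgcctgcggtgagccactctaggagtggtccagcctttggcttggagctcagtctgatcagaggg
A CArG box is held by 1.63% of 32851 mouse promoter windows of this length, and a GC box by 35.7%. The Fermt1 window holds 1 GC box, and the Fermt3 and Tln1 windows hold none of the 4 motifs. The Fermt1 window lies wholly upstream of the gene in GENCODE M21, which starts at base 132945906 on the minus strand. A window set on that start was not searched. The TEAD motif is in 14.7% of all windows and the AP-1 motif in 7.81%, and neither is in these 4 windows. The G and C content is 76.7% for Fermt2, 52.3% for Fermt3, 57% for Tln1 and 53% for Fermt1, against a median of 52.7% over all windows. A match of letters is a description of the sequence and not a bound site.

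Values are the deposited normalised read counts, whole numbers that read as gene counts divided by 1 factor per library. They summed to 15565648 to 22094490 per library, from an estimated 12710000 to 24470000 reads counted on genes. A test is limma on log2(value + 1) across all genes of a table, and a gene is said to have risen or fallen at an adjusted p below 0.05. The targeted genes moved the way their labels say, though Actb and Fermt2 kept much of their RNA in the KOs. Actb had 23650 and 22707 in KO ESCs, 2372 and 2336 in locus-deletion ESCs and 36364 and 34140 in WT ESCs. Actg1 had 1004 and 1026 in KO MEFs, 25 and 15 in locus-deletion MEFs and 5737 and 5672 in WT MEFs. All 9 pluripotency markers were above 3 in ESCs of each genotype. As a sum, fibroblast markers were strong in MEFs. The 9 genes summed to 145300 to 152182 in KO, 33040 to 33428 in locus-deletion and 35610 to 38916 in WT libraries. Not every marker was strong, and Thy1 was at or below 22 in every MEF library. In locus-deletion and WT MEFs, Dcn was at or below 17 and Lum at or below 10. Both were high in KO MEFs (Dcn 8037 and 7653, Lum 4555 and 4508). The KO MEFs also held Sox2, a stem and neural factor, at 1326 and 1306, against 0 and 0 in locus-deletion and 44 and 32 in WT MEFs.

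The libraries labelled kidney fibroblasts went against that label. Of the 9 fibroblast markers, Col3a1, Dcn, Lum and Thy1 are not in their table, and the 5 others summed to 21 to 23 in KO and 389 to 450 in floxed libraries. Dcn, Lum and Thy1 were also low in locus-deletion and WT MEFs, so their absence does not set the MKFs apart from those. Pax8, a renal epithelial factor, had 2238 and 2219 in KO and 2044 and 2126 in floxed libraries, and lay between 12 and 19 in the 6 MEF libraries. Of the 6 tubule genes, Slc34a1 and Umod are not in the MKF table, and the other 4 summed to 7064 to 7142 in KO and 8375 to 8476 in floxed libraries. That sum does not set the MKFs apart, since the 3 tubule genes in the MEF table summed to 8068 to 8613 in WT MEFs, most of it the water channel gene Aqp1 (8593 and 8043). They are called MKFs here after their label.

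Kindlin-2 made up nearly all kindlin RNA in every group apart from its own knockout. To compare genes, values were divided by exonic length. Fermt2 then took 97.3% ± 0.218 of the kindlin sum in KO, 93.9% ± 0.555 in locus-deletion and 97.6% ± 0.13 in WT ESCs (SD, n = 2 throughout). It took 99.6% ± 0.104 in KO, 99.8% ± 0.0142 in locus-deletion and 99.8% ± 0.0156 in WT MEFs. In MKFs its share was 83.0% ± 1.16 in KO against 99.6% ± 0.209 in floxed libraries. The rest was mainly Fermt3 in ESCs and mainly Fermt1 in Kindlin-2 KO MKFs. In MEFs it was Fermt3 alone, since Fermt1 has no values there and does not enter the sum. These shares are ratios within a library, so the scaling of a table does not touch them, and with 2 libraries against 2 no exact permutation test could go below p = 0.33, so none was run.

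In ESCs and MKFs, where it has values, kindlin-1 was nearly absent outside the Kindlin-2 KO. Fermt1 had 282 and 248 normalised reads in KO MKFs and 0 and 0 in floxed MKFs. It had 5 and 10 in KO, 5 and 3 in locus-deletion and 4 and 1 in WT ESCs. As a share of kindlin RNA it reached 16.1% ± 1.13 in KO MKFs and no more than 0.133% in any ESC library. Fermt3 took 6.06% ± 0.578 in locus-deletion ESCs, 2.59% ± 0.171 in KO ESCs and 2.30% ± 0.183 in WT ESCs. Its share was 2.47% and 2.71% in the KO libraries and 2.17% and 2.43% in the WT libraries, so these groups were narrowly apart. Its shares were 0.187 to 0.429% in the 6 MEF libraries, 0.927% ± 0.0236 in KO MKFs and 0.432% ± 0.209 in floxed MKFs.

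**Figure D1:**
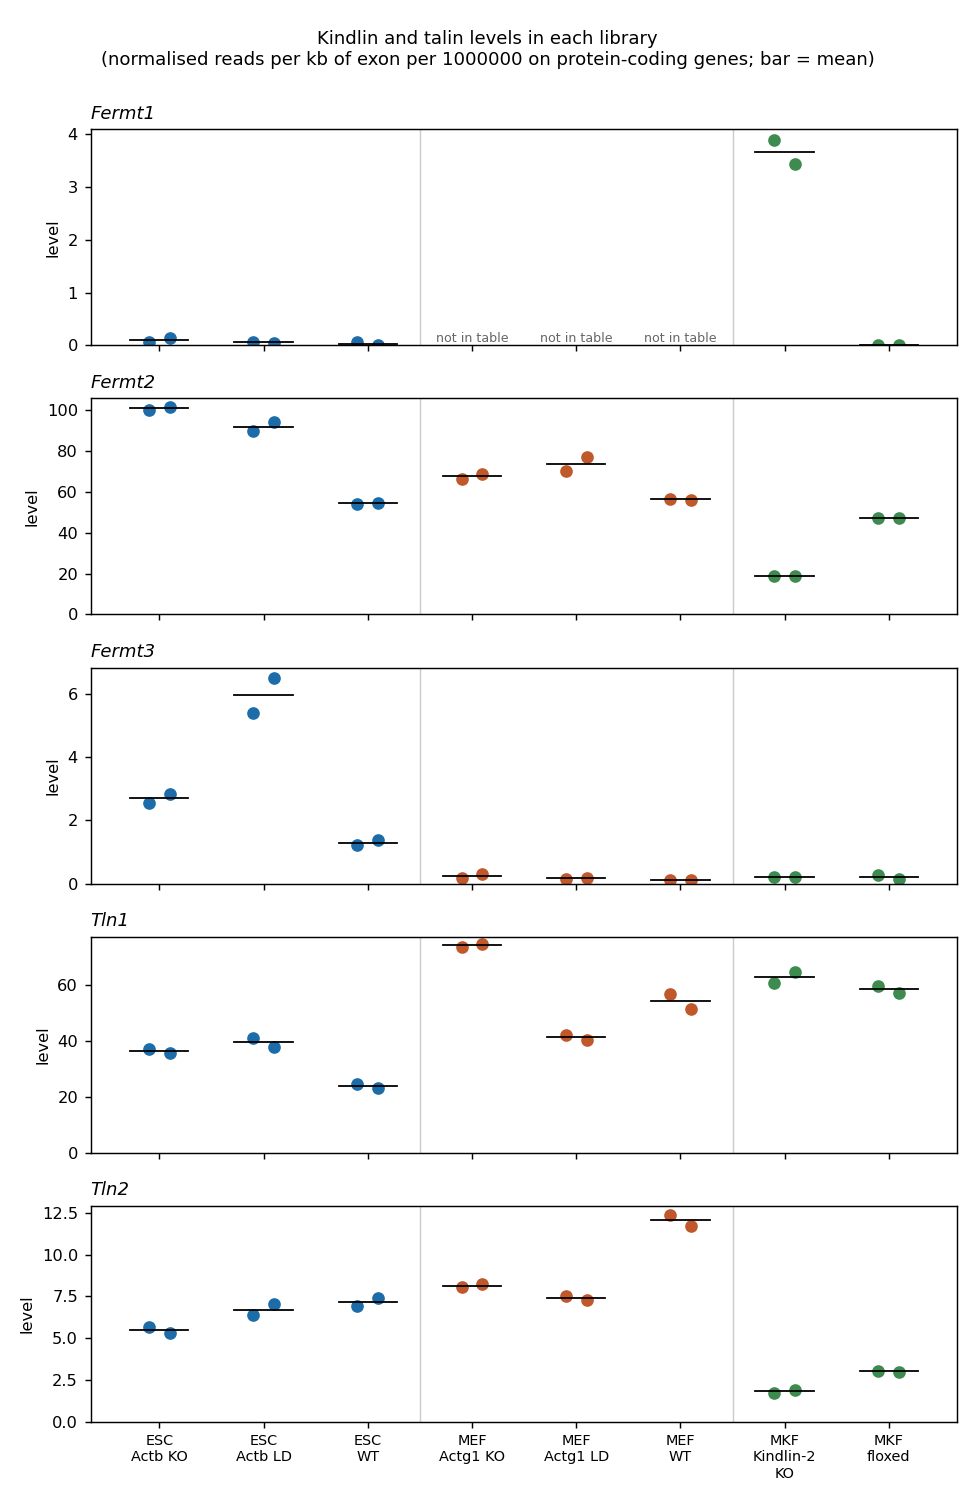
Level of each kindlin and talin in every library, in normalised reads per kb of exon per 1000000 on protein-coding genes (vertical axis, a scale for each gene), by group (horizontal axis; LD, locus deletion); each point is 1 library and each bar the mean of 2. Fermt1 stands above 3 in the Kindlin-2 KO MKFs alone among the groups measured, Fermt2 is lowest there, and Fermt3 is highest in locus-deletion ESCs; the 3 tables were normalised separately.

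Talin-1 was the major talin everywhere, and the share of talin-2 differed between cell types and genotypes. Per length, Tln2 took 13.1% ± 0.159 of the talin sum in KO, 14.5% ± 1.55 in locus-deletion and 23.0% ± 1.57 in WT ESCs. It took 9.88% ± 0.0253 in KO, 15.2% ± 0.0203 in locus-deletion and 18.3% ± 0.468 in WT MEFs. In MKFs it took 2.80% ± 0.0325 in KO and 4.90% ± 0.0169 in floxed libraries. In all 5 mutants, both libraries had a smaller Tln2 share than both libraries of the WT or floxed cells of the same type. The Actb mutants share their WT libraries, as do the Actg1 mutants, and no background over other genes was computed for shares. A smaller share is not always a loss of Tln2. In ESCs, Tln2 passed the test in neither mutant (log2 fold change -0.32 in KO and -0.06 with the locus deletion), while Tln1 rose in both (0.66 and 0.76). Without division by length, Tln2, whose exons are longer, took a larger share: 35.9% ± 2.04 in WT ESCs, 29.5% ± 0.652 in WT MEFs and 8.80% ± 0.0291 in floxed MKFs.

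**Figure D2:**
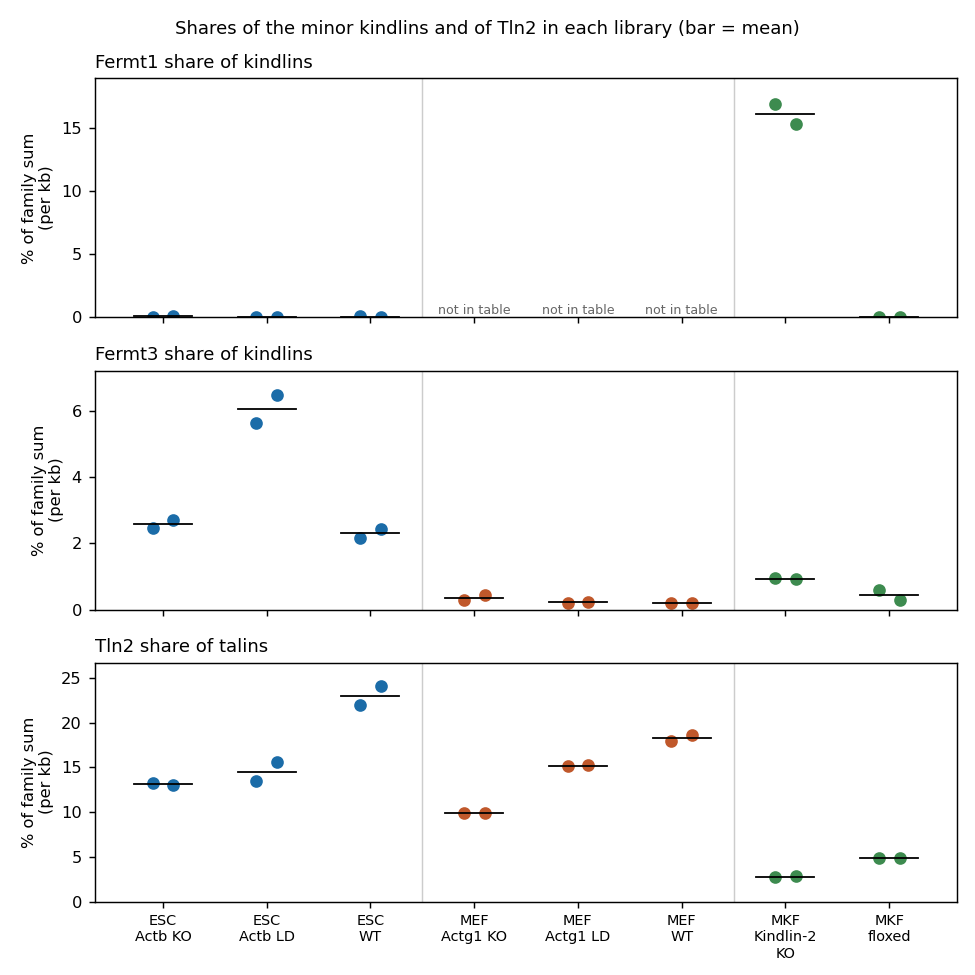
Share of Fermt1 and Fermt3 in the sum of the kindlins, and of Tln2 in the sum of the talins, in percent of values per kb of exon (vertical axes), by group (LD, locus deletion); each point is 1 library and each bar the mean of 2. The Tln2 share is lower in every mutant group than in its WT or floxed cells, from 2.80% in Kindlin-2 KO MKFs to 23.0% in WT ESCs, and the Fermt1 share is 16.1% in Kindlin-2 KO MKFs. In ESCs, Tln1 rose in both mutants and Tln2 itself passed the test in neither.

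Ordered by level per length, in normalised reads per kb of exon per 1000000 on protein-coding genes, Fermt2 ran from 101 ± 0.944 in KO ESCs to 18.9 ± 0.0607 in KO MKFs. Spread is here the sum of the SDs of both groups. In that order, locus-deletion MEFs (73.7 ± 4.88) and KO MEFs (67.7 ± 1.84) did not differ beyond their spread, though their libraries did not overlap. WT MEFs (56.4 ± 0.619), WT ESCs (54.5 ± 0.355) and floxed MKFs (47.5 ± 0.0718) followed, each apart from the next beyond its spread. Tln1 ran from 74.2 ± 0.71 in KO MEFs to 23.9 ± 0.992 in WT ESCs. KO MKFs (62.7 ± 2.82) and floxed MKFs (58.3 ± 1.62) did not differ beyond their spread, nor did floxed MKFs and WT MEFs (54.0 ± 3.82). In neither pair did the libraries overlap. Locus-deletion MEFs (41.2 ± 1.09) and locus-deletion ESCs (39.5 ± 2.25) did not differ beyond their spread, and their libraries overlapped. Tln2 was highest in WT MEFs (12.1 ± 0.474) and lowest in KO MKFs (1.81 ± 0.103), with floxed MKFs next to last (3.00 ± 0.0727). WT ESCs (7.15 ± 0.338) did not differ in Tln2 beyond their spread from locus-deletion MEFs (7.39 ± 0.184) or from locus-deletion ESCs (6.70 ± 0.455). The libraries of locus-deletion MEFs and locus-deletion ESCs did not overlap. Fermt3 was highest in locus-deletion ESCs (5.95 ± 0.797) and at or below 0.243 in every MEF and MKF group, where 4 groups in a row overlapped. Levels from different tables were scaled separately, so their order is approximate and was not tested.

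In Kindlin-2 KO MKFs, kindlin-2 RNA fell to 40.0% of the floxed level, kindlin-1 RNA appeared, and talin-2 RNA fell. Kindlin-3 and talin-1 did not pass the test. Of the 5 members 1 rose and 2 fell, in a comparison in which 49.2% of 18288 genes were called, 24.3% higher and 24.9% lower, so a count of 3 of 5 stands near the background. Fermt2 had 1251 and 1240 normalised reads in KO MKFs, against 3078 and 3142 in floxed MKFs. Both KO libraries lay far below both floxed libraries (the groups do not overlap in 73.3% of genes), and the RNA that remained in KO MKFs cannot be placed on exons here. The log2 fold change was -1.32 (SE 0.0375, limma, adjusted p = 6.14e-05). In bulk RNA, fewer cells with a transcript and less of it per cell cannot be told apart.

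Fermt1, the paralogue known from epithelia, had 282 and 248 normalised reads in KO MKFs and 0 and 0 in floxed MKFs. With 3 reads per library in place of 0, it was at least 86.1-fold higher in KO MKFs, a bound that covers counting error only. The difference on the log2(value + 1) scale was 8.05 (SE 0.242, limma, adjusted p = 6.78e-05). Fermt3, the blood-cell paralogue, had 16 and 15 in KO MKFs against 20 and 10 in floxed MKFs. The floxed libraries lay on either side of the KO libraries (0.12, 95% interval -0.88 to 1.12, limma, adjusted p = 0.821).

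The gain of kindlin-1 was small beside the loss of kindlin-2. Per kb of exon, Fermt1 gained 46.5 normalised reads while Fermt2 fell by 359, so the gain came to 12.9% of the loss. That ratio depends on the lengths used. The exonic lengths are 5699 bases for Fermt1 and 5191 for Fermt2, and the longest transcripts 5236 and 3293 bases. The sum of the kindlins was 289 ± 5.84 per kb in KO MKFs and 602 ± 7.5 per kb in floxed MKFs, or 48.0% of the floxed sum. The talin sum was 818 ± 34.5 per kb in KO MKFs and 774 ± 8.97 in floxed MKFs.

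Talin-1 had 7559 and 8020 normalised reads in KO MKFs, against 7276 and 7156 in floxed MKFs. The groups did not overlap, but the difference of 0.11 on the log2 scale missed the threshold (95% interval 0.00 to 0.22, limma, adjusted p = 0.0880) and passed it when libraries were rescaled to equal sums (0.14, adjusted p = 0.0388). Talin-2 had 405 and 437 in KO MKFs, against 700 and 692 in floxed MKFs. Both KO libraries were lower, with a log2 fold change of -0.72 (SE 0.0614, limma, adjusted p = 0.000847). That call was lost without floxed library 1 (adjusted p = 0.0652) or floxed library 2 (0.0638), while the Fermt1 and Fermt2 calls held with each library left out (highest adjusted p = 0.0451).

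Kindlin-1 came with a wide set of epithelial genes. Of the 10 epithelial markers 9 rose in KO MKFs and 0 fell, with a median log2 fold change of 5.60, against 0.01 over all genes. Epcam, an epithelial adhesion molecule, had 3430 and 3401 in KO MKFs and 26 and 11 in floxed MKFs. Cdh1, the E-cadherin gene, had 1399 and 1531 in KO MKFs and 10 and 16 in floxed MKFs, and the epithelial splicing factor Esrp1 had 1114 and 1132 in KO MKFs and 1 and 0 in floxed MKFs. The summed level of the 10 markers was 22039 to 22636 in KO libraries and 2055 to 2202 in floxed libraries, where Krt5 and Krt14 were at 0. Most of both sums was the keratin gene Krt18, at 13347 and 13765 in KO and 1945 and 2082 in floxed MKFs. Of the 5 fibroblast markers measured, 4 fell and 1 rose, with Postn, a matrix protein, at 1 and 0 in KO MKFs and 311 and 366 in floxed MKFs. Of the 4 tubule genes 1 rose (Cdh16, at 3160 and 3005 in KO and 1510 and 1571 in floxed MKFs) and 2 fell, among them Lrp2, the endocytic receptor megalin, at 734 and 769 in KO and 3500 and 3310 in floxed MKFs. Of the 2 neuron and muscle genes measured 0 rose and 1 fell, and Tubb3 had 257 and 266 in KO and 957 and 1000 in floxed MKFs. The part of these cell type differences in the Fermt1 and Tln2 results was not tested.

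**Figure D3:**
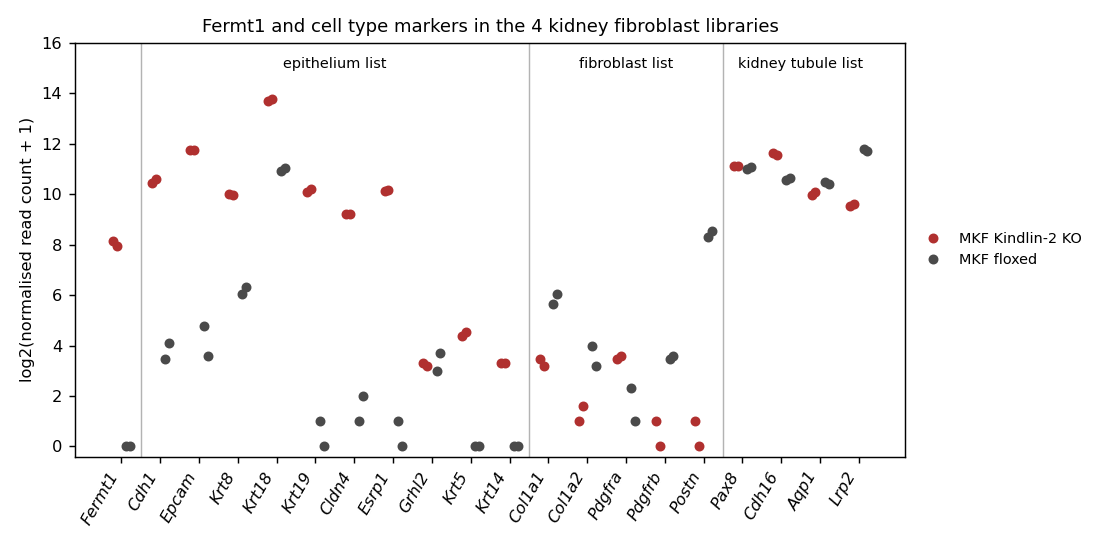
Fermt1 and the cell type markers present in the table of the kidney fibroblasts, as log2(normalised read count + 1) (vertical axis) for each gene (horizontal axis); red points are the 2 Kindlin-2 KO libraries and grey points the 2 floxed libraries. Fermt1 and 9 of 10 epithelial markers are higher in both KO libraries, 4 of 5 fibroblast markers are lower, and the tubule genes stay high in both groups.

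Among the partners of kindlins and talins in MKFs, counts are read beside the 49.2% of all genes called, 24.3% higher and 24.9% lower, and a count near those shares is not a result about the list. The pathway lists were chosen with earlier results of these data known, and their counts are a description. Of 6 kindlin partners measured, 3 fell and 0 rose, among them Parvb, the integrin-linked beta-parvin, at 130 ± 5.66 in KO MKFs and 513 ± 9.9 in floxed MKFs (log2 fold change -1.97, limma, adjusted p = 0.000109), and Lims1, the adaptor PINCH-1 (-0.61, adjusted p = 0.00242). Their median was -0.43. Of 9 talin partners and recruiters 5 rose and 3 fell. The talin-binding adhesion scaffold Kank1 rose (2.16), and Kank2 fell (-1.19), as did Pip5k1c, the kinase that makes a lipid which recruits talin (-0.67). Of 6 regulators acting at the integrin tail, most of them inhibitors of activation, 2 fell and 0 rose. These were the adaptor Dab2 (-1.14) and Fblim1 (-0.46), the gene of migfilin, which binds filamin.

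Of 8 integrin beta subunits 2 rose and 4 fell, and of 13 alpha subunits 6 rose and 4 fell. The largest rise was in Itgb4, the beta-4 subunit of epithelial hemidesmosomes, at 2054.5 ± 132 in KO MKFs and 23.5 ± 3.54 in floxed MKFs (log2 fold change 6.40, limma, adjusted p = 4.1e-05). Its partner Itga6 rose as well (2.25), with Itga3, another laminin-receptor subunit (2.17), and Itgb6, an epithelial subunit (2.29). Itgb2, the leukocyte subunit (-1.52), and Itgb3 (-0.85) fell. Itgb2 is also 1 of the 12 blood cell markers, of which 7 are in the MKF table (not Adgre1, Cd53, Gp9, Laptm5 and Tyrobp). It alone among them fell, while 5 rose, and the 7 summed to 384 to 387 in KO and 297 to 298 in floxed libraries. Spi1 had 31 and 24 in KO and 1 and 2 in floxed MKFs, and Ptprc, the leukocyte surface phosphatase CD45, had 16 and 12 in KO and 3 and 4 in floxed MKFs. Their part in the Itgb2 and Fermt3 values was not tested. Of 14 adhesion signalling genes 3 rose and 4 fell, with the scaffold Tns1, a tensin, at 870.5 ± 30.4 in KO MKFs and 4725.5 ± 138 in floxed MKFs (-2.44, adjusted p = 3.95e-05).

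In Actb KO ESCs, where no kindlin or talin was mutated, kindlin-2, kindlin-3 and talin-1 RNA rose and talin-2 RNA did not pass the test. Of the 5 members 3 rose and 0 fell, in a comparison in which 4.88% of 23054 genes were called, 2.44% higher and 2.44% lower. With libraries rescaled to equal sums without the genes over 1% of a library, 467 genes were higher and 786 lower, against 563 and 563. Fermt2 had 6769 and 6662 normalised reads in KO ESCs, against 3509 and 3417 in WT ESCs, with no overlap between the groups, as in 46.8% of genes. The log2 fold change was 0.96 (SE 0.0919, limma, adjusted p = 0.00156). Tln1 had 4692 and 4390 in KO ESCs, against 3007 and 2736 in WT ESCs (0.66, SE 0.0996, limma, adjusted p = 0.0101).

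Fermt3 was far lower than Fermt2 and rose as well, with 191 and 207 in KO ESCs, against 87 and 95 in WT ESCs (1.12, SE 0.159, limma, adjusted p = 0.00788). Tln2 had 1343 and 1232 in KO ESCs, against 1582 and 1632 in WT ESCs. The KO libraries lay below the WT libraries, by a difference of -0.32 that missed the threshold (95% interval -0.57 to -0.07, limma, adjusted p = 0.140). Fermt1, at 5 and 10 in KO ESCs against 4 and 1 in WT ESCs, was too low to compare (limma, adjusted p = 0.314). The kindlin sum was 1329 ± 12 per kb in KO ESCs and 683 ± 11.9 in WT ESCs, and the talin sum 533 ± 26.1 per kb in KO and 381 ± 17.6 in WT ESCs. All 3 calls were lost when any 1 of the 4 KO and WT libraries was left out, with adjusted p of 0.0925 to 0.138 (Fermt2), 0.132 to 0.195 (Fermt3) and 0.128 to 0.228 (Tln1), where 0 to 18 genes in all were called. They were also lost without the trend in the fit (0.079, 0.0891 and 0.132).

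The Actb locus deletion had the same 3 members higher than in WT. Of the 5 members 3 rose and 0 fell, while 11.2% of 23054 genes were called, 5.19% higher and 6% lower. Both Actb contrasts use the same WT libraries, so the second is not independent of the first. Fermt2 had 5797 and 6203 normalised reads in locus-deletion ESCs, against 3509 and 3417 in WT ESCs (0.79, SE 0.0919, limma, adjusted p = 0.00179). Tln1 had 4999 and 4711 in locus-deletion ESCs, against 3007 and 2736 in WT ESCs (0.76, SE 0.0996, limma, adjusted p = 0.00309). In both genes the deletion libraries stood above both WT libraries, and 49.7% of genes have groups that do not overlap.

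Kindlin-3 had its highest values of the series there. Fermt3 had 387 and 478 normalised reads in locus-deletion ESCs, against 87 and 95 in WT ESCs (2.23, SE 0.159, limma, adjusted p = 0.000223). Tln2 had 1454 and 1635 in locus-deletion ESCs, against 1582 and 1632 in WT ESCs, and the groups overlapped (-0.06, 95% interval -0.31 to 0.19, limma, adjusted p = 0.790). The Tln1 call was lost without any 1 of the 4 libraries (adjusted p = 0.0521 to 0.0684), the Fermt2 call without WT library 1 (0.062) or WT library 2 (0.06), and the Fermt3 call without WT library 1 (0.0549). Without the trend in the fit the Fermt2 and Tln1 calls were lost (0.0607 and 0.0701).

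Between the Actb mutants, only Fermt3 among the 5 members passed the test. It was lower in KO than in locus-deletion ESCs (-1.11, SE 0.159, limma, adjusted p = 0.00761), while 4.88% of all genes were called, 2.56% higher and 2.32% lower. The call was lost when any 1 of the 4 KO and locus-deletion libraries was left out (adjusted p = 0.0932 to 0.214), without the trend (0.0858) and in a fit of the 2 groups alone (0.0622). Its libraries did not overlap, as in 46.4% of genes. The intervals for KO against locus deletion were -0.05 to 0.37 for Fermt2, -0.32 to 0.13 for Tln1 and -0.51 to -0.02 for Tln2.

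Of the 12 markers of blood cells, the cells in which kindlin-3 is best known, 7 are in the ESC table, and Ptprc, Tyrobp, Cd53, Adgre1 and Gp9 are not. The 7 summed to 1967 to 2059 in KO, 1297 to 1417 in locus-deletion and 983 to 1126 in WT libraries, most of it Laptm5, a lysosomal membrane protein. Of the 7, Laptm5 (0.92) and Cd68 (1.19) rose in KO and Cd68 (1.16) rose in locus-deletion ESCs, and Spi1, the myeloid factor, was at or below 10 in every ESC library. Fibroblast markers summed to 84 to 103 in KO, 52 to 60 in locus-deletion and 136 to 143 in WT libraries, with 4 of 9 in the table.

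Other marker lists moved as well in the Actb mutants. Of the 4 neuron and muscle genes measured there, 2 rose and 0 fell in each mutant, with sums of 2841 to 2911 in KO, 2597 to 3556 in locus-deletion and 1387 to 1479 in WT libraries, and these were the neurofilament genes Nefm (2.68 in KO and 2.41 with the locus deletion) and Nefl (1.47 and 1.41). Of 9 epithelial genes 2 rose and 1 fell in KO, while 0 rose and 4 fell with the locus deletion, with sums of 9985 to 10039 in KO, 7920 to 8088 in locus-deletion and 12862 to 13412 in WT libraries. Krt5 is not in that table, and Krt14 was at 0 in WT. Most of these sums was Cdh1, at 8280 and 8370 in KO, 7104 and 6929 in locus-deletion and 12186 and 11800 in WT ESCs. The tubule list has only Lrp2 and Pax8 there, and Lrp2 rose in both, with 6433 and 6126 in KO, 2060 and 1815 in locus-deletion and 1361 and 1421 in WT ESCs. Of 4 endothelial genes 2 fell in KO, 1 fell with the locus deletion and 0 rose, with sums of 1438 to 1502 in KO, 1170 to 1229 in locus-deletion and 1991 to 2057 in WT libraries. Of the 9 pluripotency markers 2 rose and 0 fell in KO, and 1 rose and 2 fell with the locus deletion, with sums of 44078 to 44446 in KO, 43219 to 43866 in locus-deletion and 40118 to 41592 in WT libraries. The part of these marker differences in the kindlin and talin results was not tested.

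Some partners of kindlins and talins rose in the Actb mutants, where 2.44% of all genes were higher in KO and 5.19% with the locus deletion. Of 8 kindlin partners 2 rose and 0 fell in KO ESCs, and 3 rose and 0 fell with the locus deletion, with medians of 0.17 and 0.33 against 0.00 and 0.01 over all genes. Rsu1, a partner of PINCH, rose in both (0.95 and 0.93), as did the paxillin relative Tgfb1i1 from very low values (19.5 ± 4.95 in KO, 10 ± 0 in locus-deletion and 2.5 ± 0.707 in WT ESCs). Of 10 talin partners 2 rose and 0 fell in KO ESCs, and 2 rose and 1 fell with the locus deletion. Vcl, the gene of vinculin, which binds stretched talin, had 2086 ± 73.5 in KO, 3087.5 ± 173 in locus-deletion and 1247 ± 17 in WT ESCs (0.74, limma, adjusted p = 0.00585, and 1.31, adjusted p = 0.000271). Among the regulators at the integrin tail, 3 of 6 rose in KO and 4 of 6 with the locus deletion, and 0 fell in either. Flna, a filamin that competes with talin for the integrin tail, had 20231.5 ± 514 in KO, 26598.5 ± 2420 in locus-deletion and 5112.5 ± 98.3 in WT ESCs.

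The counts of integrin subunits in ESCs are read beside the 4.88% (KO) and 11.2% (locus deletion) of all genes called. Of 6 beta subunits 0 rose and 0 fell in KO by limma (1 higher and 1 lower at an unadjusted p under 0.05), and with the locus deletion Itgb3 rose (1.59) and Itgb1, the main beta subunit, fell (-0.36). Of 16 alpha subunits 2 rose and 0 fell in KO, and 2 rose and 2 fell with the locus deletion. Itga1, a collagen-receptor subunit, led both, at 47 ± 2.83 in KO, 113.5 ± 12 in locus-deletion and 4.5 ± 0.707 in WT ESCs. Of 14 adhesion signalling genes 3 rose and 1 fell in KO, and 3 rose and 3 fell with the locus deletion. The zinc-binding adhesion protein Zyx rose in both (2.81 and 2.82), and Ptk2b, a relative of focal adhesion kinase, rose too (1.24 and 1.01).

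In MEFs, where Actg1 was mutated, both talins changed in each mutant, and talin-1 went in opposite directions in the KO and in the locus deletion. In Actg1 KO MEFs 1 of the 4 members rose and 1 fell, while 39.7% of 21589 genes were called, 20.6% higher and 19.1% lower, so 2 of 4 stands near the background. Tln1 had 11969 and 12334 normalised reads in KO MEFs, against 9935 and 8910 in WT MEFs (0.37, SE 0.0654, limma, adjusted p = 0.00305). Tln2 had 2454 and 2539 in KO MEFs, against 4063 and 3809 in WT MEFs (-0.66, SE 0.0584, limma, adjusted p = 9.82e-05). In neither gene did the libraries of the groups overlap, as they do not in 68.5% of genes. The Tln1 call was lost without KO library 1 (adjusted p = 0.0711), without KO library 2 (0.086) and without the trend in the fit (0.0548).

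Kindlin-2 differed little in KO MEFs. Fermt2 had 5715 and 6038 in KO MEFs, against 5269 and 5142 in WT MEFs. Both KO libraries were higher, by a difference of 0.17 that missed the threshold (SE 0.0766, limma, adjusted p = 0.111). It passed with libraries rescaled to equal sums (0.26, adjusted p = 0.0129), also without the genes over 1% of a library (0.26, 0.00613), and in a fit of the 2 groups alone (0.0382). Fermt3 had 18 and 29 in KO MEFs, against 11 and 12 in WT MEFs (0.93, 95% interval 0.10 to 1.77, limma, adjusted p = 0.0755), and passed where only genes with a mean of at least 10 were kept (0.0498).

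With the Actg1 locus deleted, 1 of the 4 members rose and 2 fell, while 22% of 21589 genes were called, 9.46% higher and 12.6% lower. Tln1 had 7158 and 7261 normalised reads in locus-deletion MEFs, against 9935 and 8910 in WT MEFs (-0.38, SE 0.0654, limma, adjusted p = 0.00515). Tln2 had 2403 and 2443 in locus-deletion MEFs, against 4063 and 3809 in WT MEFs (-0.70, SE 0.0584, limma, adjusted p = 0.000221). Fermt2 had 6347 and 7340 in locus-deletion MEFs, against 5269 and 5142 in WT MEFs (0.39, SE 0.0766, limma, adjusted p = 0.00957). In these 3 genes, as in 54% of all genes, the groups did not overlap. In Fermt3 the values were 15 and 19 in locus-deletion MEFs against 11 and 12 in WT MEFs (0.52, limma, adjusted p = 0.368). The Fermt2 call was lost without WT library 1 (0.10) or WT library 2 (0.115), in a fit of the 2 groups alone (0.0517) and without the trend (0.109). The Tln1 call was lost without locus-deletion library 1 (0.0547) and without the trend (0.088).

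Set against each other, the Actg1 mutants differed in talin-1 and not detectably in talin-2. Tln1 was higher in KO than in locus-deletion MEFs by 0.75 on the log2 scale (SE 0.0654, limma, adjusted p = 6.43e-05), 1 of 4 members called where 45.2% of genes were, 24.5% higher and 20.7% lower. The libraries did not overlap, as in 69.4% of genes. Fermt2 differed by -0.22 (limma, adjusted p = 0.0518), and passed with pseudocount 5 (0.0426), with a minimum mean of 10 (0.028) and without locus-deletion library 1 (-0.32, 0.0146). For Tln2 the difference was 0.04, with an interval of -0.09 to 0.18. The talin sum was 1376 ± 29.6 per kb in KO, 868 ± 8.97 in locus-deletion and 1176 ± 83.7 in WT MEFs, and the kindlin sum 1136 ± 45.3 in KO, 1321 ± 136 in locus-deletion and 1005 ± 17.2 in WT MEFs. Fibroblast markers moved in all 3 MEF comparisons: 5 of 9 rose and 2 fell in KO against WT, 0 rose and 5 fell with the locus deletion against WT, and 7 rose and 1 fell in KO against locus deletion. Among them Dcn, a small matrix proteoglycan, had 8037 and 7653 in KO, 12 and 5 in locus-deletion and 17 and 14 in WT MEFs. Other marker lists moved as well. Of the 4 neuron and muscle genes measured, 2 rose and 1 fell in KO against WT. With the locus deletion 0 rose and 2 fell, and in KO against locus deletion 4 rose and 0 fell. Tubb3 fell in both mutants against WT (-0.60 and -1.59). Of 4 endothelial genes 1 rose and 1 fell in KO, and 0 rose and 1 fell with the locus deletion. Between the mutants, 3 were higher and 0 lower in KO. The part of these marker differences in the talin results was not tested.

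In MEFs, 39.7% of all genes were called in KO and 22% with the locus deletion, so a count of partners near those shares is not a result about the partners. Of 9 kindlin partners 4 rose and 1 fell in KO and 5 rose and 1 fell with the locus deletion, with medians of 0.42 and 0.57, against 0.06 and 0.00 over all genes. Pxn, the paxillin gene, fell in both (-1.06 and -0.66), and Parva, alpha-parvin, rose in KO (0.55). Of 10 talin partners 2 rose and 5 fell in KO, and 2 rose and 2 fell with the locus deletion. Kank2 fell in both (-0.78 and -0.61) and Rap1b, a small GTPase that recruits talin, rose in both (0.37 and 0.28). Of 6 regulators at the integrin tail 4 fell and 0 rose in KO, among them Dok1 (-1.37) and Dab2 (-1.21), and 1 rose and 1 fell with the locus deletion.

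Integrin subunits in MEFs went both ways. Of 7 beta subunits 1 rose and 1 fell in KO and 2 rose and 1 fell with the locus deletion. Itgb1 had 44356.5 ± 606 in KO, 31927 ± 1762 in locus-deletion and 26134.5 ± 639 in WT MEFs and rose in both (0.76 and 0.29). Of 14 alpha subunits 5 rose and 6 fell in KO, led by Itga11, a collagen-receptor subunit, at 671 ± 65.1 in KO against 52 ± 5.66 in WT MEFs, and 6 rose and 3 fell with the locus deletion, where Itga5, the fibronectin-receptor subunit, had 13646 ± 785 in locus-deletion and 5929.5 ± 664 in WT MEFs. Of 14 adhesion signalling genes 4 rose and 8 fell in KO, and 2 rose and 2 fell with the locus deletion. Ptk2, the gene of focal adhesion kinase, rose with the locus deletion (0.89).

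**Figure D4:**
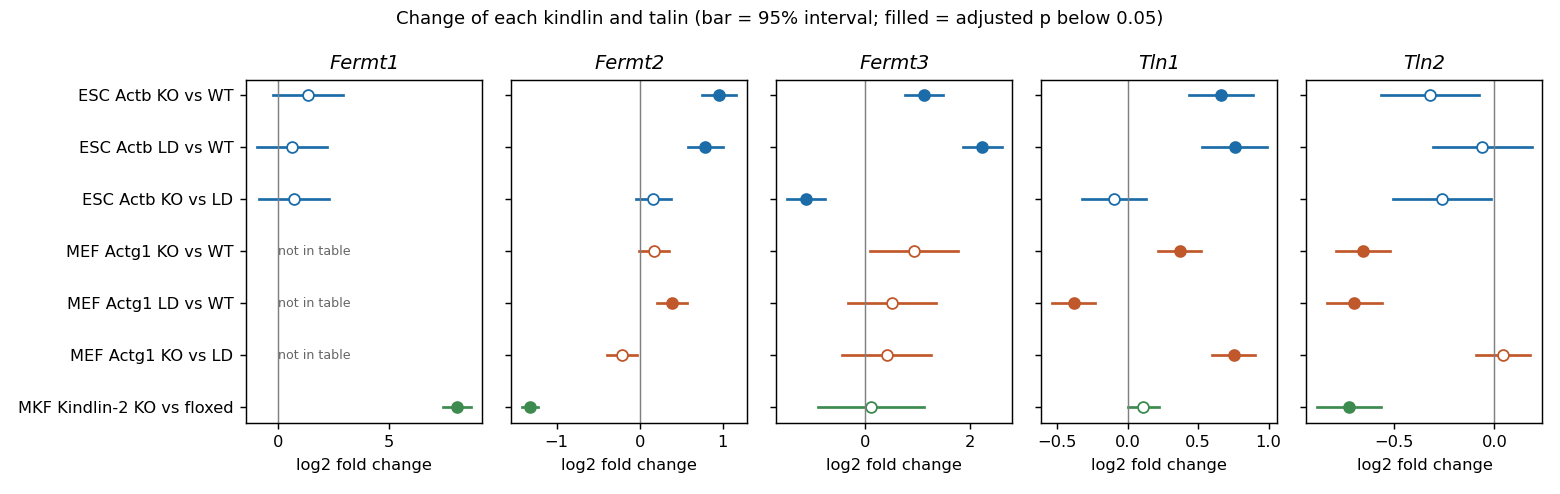
Log2 fold change of each member in 7 comparisons (horizontal axes, a scale for each gene), with the group named first on top of the ratio; points are limma estimates, bars 95% intervals, and filled points passed at an adjusted p below 0.05 (LD, locus deletion). Fermt2 is filled above 0 in both Actb mutants and filled below 0 in the Kindlin-2 KO, Tln1 lies on opposite sides of 0 in the 2 Actg1 mutants (0.37 and -0.38), and no Tln2 point against WT or floxed cells lies above 0.

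Genes whose pattern across libraries was most like that of a member are given by Pearson's r of log2(value + 1), centred within each table, as a description, since the libraries of a group share genotype and table. For Fermt2, over 16 libraries and 9009 genes, they were Zfp532 (0.976), Anxa6 (0.957) and Unc5b (0.953). For Tln1 they were 6330403L08Rik (0.938), Nrg1 (0.936) and Ddx58 (0.936), and for Tln2 Esco2 (0.930), Zfp395 (0.924) and Cep164 (0.918). Fermt3 was compared over the 6 ESC libraries and 11368 genes only, where Catip (1.00), Ino80 (0.997) and Rhox9 (0.997) were closest.

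On GRCm38 (GENCODE M21) the genes lie on the minus strand, at chr2:132904389-132945906 for Fermt1 (ENSMUSG00000027356), chr14:45458795-45530118 for Fermt2 (ENSMUSG00000037712), chr19:6998958-7019469 for Fermt3 (ENSMUSG00000024965), chr4:43531519-43562691 for Tln1 (ENSMUSG00000028465) and chr9:67217087-67559703 for Tln2 (ENSMUSG00000052698). Their exonic lengths are 5699, 5191, 5784, 9801 and 18357 bases. Exons of Creb3 on the opposite strand overlap 3.67% of the exonic bases of Tln1, and exons of Trpt1 overlap 1.54% of those of Fermt3. Whether counting used the strand is not given in the sources used here, so reads in these overlaps are uncertain.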

How the data were processed

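The 16 libraries were made from total RNA of mouse cells, per the labels' protocols with column-based isolation, DNase digestion and a stranded SMARTer kit. Tools in the submitters' processing notes, listed there with no role or order, are DESeq2 1.14.1, featureCounts 1.6.0, Subread, STAR 2.5.3a and FastQC, with the builds mm10 and GRCm38. What the authors deposited is a whole-number score for each gene and library. Gaps between low values fit gene counts divided by a library factor (1 read being worth 0.715 to 1.30) and then rounded, so the scores were not tested as counts. Each gene listed reaches at least 4 (ESC, MEF) or 5 (MKF) in some library. Fermt1 in MEFs and Ilk were not analysed here. Bounds cover counting error only, since duplicate molecules could not be told apart.

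Two-sided tests were run in limma 3.58.1 (R 4.3.3) after taking log2(value + 1). A model of group means used every group of a table, with empirical Bayes moderation, a mean trend and a minimum gene mean of 1. P-values were adjusted by Benjamini-Hochberg over all genes tested, and fold changes understate changes of low genes. Tables were scaled separately, so no test crosses them. Levels set side by side are per kb of exon and per 1000000 normalised reads on protein-coding genes. ESC libraries with the same number varied in the same direction (correlations of their deviations 0.492, 0.678 and 0.349 between groups). This pairing comes from the values and is not stated in the labels. Coding sequences were aligned with MAFFT 7.526. The steps were tested on simulated data. Alternatives were the pseudocount, the filter, the scaling, the trend, a replicate block, the groups fitted and leaving out each library. The members and the lists of partners and cell type markers were chosen with earlier results of these data known. From each partner list and comparison, at most the 2 genes that rose and the 2 that fell most, past the threshold and without overlap, could be named; markers are named beside the result they touch.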

Additional observations from a re-analysis of the deposited data

Results flagged for a closer look

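Fermt3 differed between the Actb mutants: KO ESCs had 191 and 207 normalised reads and locus-deletion ESCs 387 and 478, a difference of -1.11 on the log2 scale (limma, adjusted p = 0.00761), although each stood above WT. That call was lost when any 1 of the KO and locus-deletion libraries was left out (adjusted p = 0.0932 to 0.214). Tln1 differed between the Actg1 mutants: KO MEFs had 11969 and 12334 and locus-deletion MEFs 7158 and 7261, a difference of 0.75 on the log2 scale (limma, adjusted p = 6.43e-05), with the KO above and the locus deletion below WT. Both are tests of the difference between the mutants, to which the WT libraries lend only their share of the estimated spread. With only the 2 groups in the fit, the Fermt3 call was lost (adjusted p = 0.0622) and the Tln1 call held (0.000886).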

How the results depend on the processing

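The members that passed numbered 3, 3 and 1 of 5 in ESCs (KO against WT, locus deletion against WT, KO against locus deletion), 2, 3 and 1 of 4 in MEFs and 3 of 5 in MKFs. Without the trend in the fit these were 0, 1 and 0 in ESCs and 1 in each MEF mutant against WT. With only the 2 groups in the fit, KO against locus-deletion ESCs gave 0. For KO against locus-deletion MEFs, pseudocount 5 gave 2, and so did a minimum mean of 10. Leaving out 1 library gave 0 to 0, 0 to 2 and 0 to 0 members in ESCs, 1 to 2, 2 to 3 and 1 to 2 in MEFs and 2 to 3 in MKFs, with the lone library of a group assumed to vary like the others. The cause was not tested, though these fits have fewer samples. Signs turned in 3 uncalled differences when 1 library was left out. In locus-deletion against WT ESCs, Tln2 ranged from -0.14 to 0.025 (positive without locus-deletion library 1) and Fermt1 from -0.029 to 1.29 (negative without WT library 2). In KO against floxed MKFs, Fermt3 ranged from -0.35 to 0.58 (negative without floxed library 2). Of the other fold changes under alternatives, 362 kept their direction and call, 42 lost and 9 gained a call.

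The replicate block changed no member's call in any comparison (3, 3, 1, 2, 3, 1 and 3 called). Over all ESC genes it moved the counts to 1850, 3727 and 1735, against 1126, 2580 and 1125. In MEFs the numbers did not pair the libraries (correlations of 0.214, -0.302 and -0.211), nor in MKFs (-0.0952). With the WT numbers crossed, an alternative chosen after seeing the data, 3 members were called in each MEF mutant against WT, and 8815 and 5006 genes. Over all alternatives the genes called ranged from 0 to 1850, 58 to 3727 and 1 to 1735 in ESCs, 4384 to 9148, 1803 to 5356 and 5759 to 10217 in MEFs and 2112 to 9627 in MKFs. Divided by the longest transcript, the Fermt1 share in KO MKFs was 11.6%, and with no division by length 17.4%. The Tln2 share there was 3.57% and 3.63% by the longest transcript and 5.13% with no division. Over all alternatives for shares, 58 moved by more than the SD and 90 did not. Leaving out 1 of 2 libraries cannot move a share by more than that SD, so the moves came from the choice of length. Depth limits Fermt1 in ESCs, with 1 to 14 estimated reads a library.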
